A study of Mus musculus with 62 samples.

Results

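Glutamate receptors and the proteins that travel with them were followed through the long-RNA libraries of a study of mouse hippocampus and of the hippocampal cell line HT-22. The set was defined by gene name, though with earlier results of these data known. It held 37 genes of the 53975 gene identifiers in the deposited tables. It comprised 4 AMPA receptor subunits, 7 NMDA receptor subunits, 5 kainate receptor subunits, 1 delta receptor subunit (Grid1), 7 metabotropic receptors, 6 transmembrane AMPA receptor regulatory proteins (TARPs), 6 other auxiliary subunits and the postsynaptic scaffold gene Dlg4. Of these, 35 had a mean of at least 1 TPM (transcript abundance normalised for length and depth) over the mouse libraries and were tested there, and 5 did so in HT-22 cells.

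The mice carried the App allele NL-G-F (called APP below), a knock-in that places a humanised and mutated amyloid sequence in the animal's own App gene under its own promoter, or were C57BL/6J animals (WT). The source label names left and right hippocampus together, and how many animals went into a library is not stated by the labels, so p-values measure the spread between libraries. Each age of 3, 6 and 12 months had 3 APP libraries, and WT had 2 libraries at the youngest age and 3 at the other ages. HT-22 is an immortalised mouse hippocampal line, used at passage 4. Every HT-22 culture was first given an LNA (locked nucleic acid) oligonucleotide for 24 h, either against Hsf1 at 150 nM or a scramble stated in the labels as 50 uM, and then 30 uM of amyloid beta 1-42 (Aβ42) or of the same residues in reverse order. The scramble groups held 4 libraries for each peptide and the anti-Hsf1 groups 3, and no HT-22 group was left without peptide or LNA. Nothing says that the HT-22 libraries of a group were separate experiments, and the same limit holds for their p-values.

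Fast excitatory transmission in the hippocampus runs through AMPA receptors, tetramers of the subunits encoded by Gria1 to Gria4, while NMDA receptors pair the obligatory subunit Grin1 with Grin2 or Grin3 subunits and admit calcium when the synapse is strongly active. Kainate receptors (Grik genes) modulate release and excitability, and metabotropic receptors (Grm genes) signal through G proteins. TARPs (Cacng2 to Cacng5, Cacng7, Cacng8), cornichons (Cnih2, Cnih3) and Shisa proteins (Shisa6, Shisa9) bind AMPA receptors and set their trafficking and gating, the Neto proteins do so for kainate receptors, and PSD-95, the product of Dlg4, holds receptors at the synapse. The mix of subunits differs between brain regions and cell types.

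Replicates 1 and 2 of the APP group at 3 months stood apart in markers of neighbouring brain regions, and its replicates 1 and 3 in oligodendrocyte markers. The summed scaled level of 6 thalamus markers was 439.3, 151.4 and 45.9 TPM in its replicates 1, 2 and 3, against 29.7 to 117.2 in the other 14 mouse libraries, where 117.2 was APP at 6 months, replicate 1. Replicate 3 was within the range of the other libraries for thalamus (45.9) and striatum (65.2). All 6 thalamus markers were above 1 TPM in replicates 1 and 2, and none was at 0 in any library of the group. Summed levels of 7 striatum markers ran from 65.2 to 259.9 in the group and from 37.5 to 71.4 elsewhere, those of 8 oligodendrocyte markers from 1564 to 2621 and from 802.1 to 1535, and those of 4 CA1 and pyramidal markers from 36.6 to 119 and from 96.5 to 176.6. The oligodendrocyte sum was 2621, 1564 and 2173 in APP replicates 1, 2 and 3 at 3 months and 1535 and 1459 in WT libraries of that age. It was at most 1258 at the other ages, so both genotypes were high at 3 months and APP replicate 2 was close to WT. The 8 general neuron markers summed to 1811 to 2322 in the group and to 1843 to 2145 elsewhere. Choroid plexus markers (6 genes) summed to 568.3 to 2390 in the group and to 35.6 to 1630 elsewhere, and markers of oligodendrocyte precursors (5 genes) to 85.2 to 124.1 and to 71.1 to 97.4. The ranges overlapped for dentate gyrus (47.3 to 66.2 against 56.2 to 106.5), CA3 (67.5 to 78.3 against 68.2 to 99.7), interneurons (352.1 to 363.3 against 238.5 to 362.4), astrocytes (580 to 605.2 against 581.5 to 1116) and microglia (96.4 to 108.6 against 87.1 to 213.9). The female-specific transcript Xist reached 70.2 to 136.6 in 11 mouse libraries, all those labelled APP plus the WT ones at 3 months, and lay at 0.26 to 0.52 in the remaining 6, which are WT at 6 and 12 months. Sex and genotype therefore cannot be told apart at 6 and 12 months. Read counts are not known, and relative depth, taken as the ratio of coverage to FPKM, spanned 1.42 to 3.05 for hippocampus and 0.722 to 2.6 for HT-22.

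**Figure D1:**
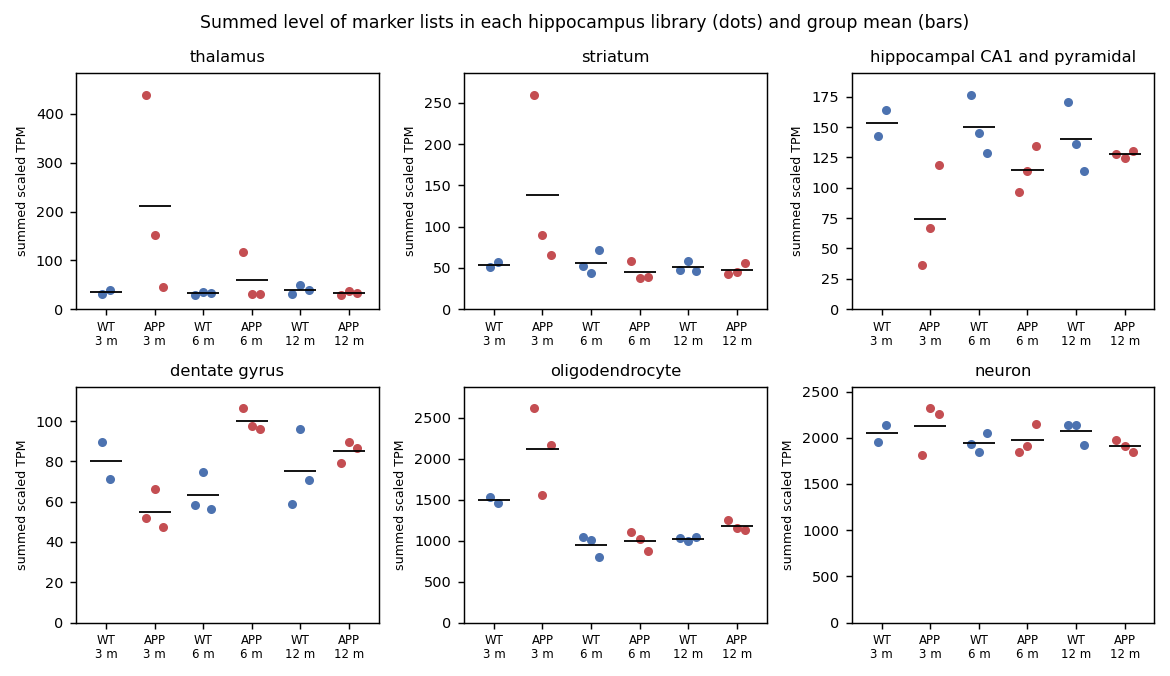
Summed scaled TPM of 6 marker lists (y axes) in each of the 17 hippocampus libraries by genotype and age (x axes, months); each dot is a library and each bar a group mean. The thalamus and striatum sums reach 439.3 and 259.9 in APP replicate 1 at 3 months, while the neuron sums lie between 1811 and 2322 in all libraries.

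Hippocampal levels below are TPM scaled to a common median ratio between libraries, as mean ± SD over the 17 mouse libraries. Among AMPA subunits Gria1 (189.5 ± 37.6) and Gria2 (168.5 ± 30.1), which together form the main receptor of pyramidal cells, did not differ beyond their spread. Gria3 (59.9 ± 5.46) and Gria4 (27.8 ± 7.29), the latter best known from interneurons and thalamic relay cells, were lower. Of the NMDA subunits, Grin1 (96.4 ± 12.1), Grin2a (88.1 ± 29.5) and Grin2b (79.3 ± 9.68) overlapped in their spread. Grin3a (11.2 ± 1.49), Grin2c (7.85 ± 1.23) and Grin2d (3.14 ± 1.06) followed. Grin3b was at 0.10 on average and listed at 0 in 5 libraries, and was not tested. Grin2a ranged from 29.4 to 134.5 TPM and varied widely within groups.

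Kainate subunits were led by Grik5 (47.5 ± 6.81), a high-affinity subunit that needs a low-affinity partner, and Grik2 (31.3 ± 6.46), such a partner. Grik4 (9.23 ± 1.85), Grik3 (8.86 ± 1.82) and Grik1 (8.75 ± 1.82) did not differ beyond their spread. Among metabotropic receptors Grm5 (108.6 ± 13.4), the Gq-coupled receptor of pyramidal cells and astrocytes, was highest, followed by Grm3 (38.8 ± 6.74), Grm7 (30.2 ± 3.28), Grm2 (11.0 ± 2.68), Grm8 (6.14 ± 1.31) and Grm4 (5.43 ± 3.07). Grm6, the receptor of retinal ON bipolar cells, was listed at 0 in all 17 libraries and was not tested. Cacng8, the TARP typical of hippocampus, was at 83.2 ± 18.0, above Cacng7 (42.8 ± 5.56), Cacng3 (17.4 ± 4.71), Cacng2 (12.0 ± 2.39), Cacng4 (7.86 ± 2.89) and Cacng5 (3.83 ± 2.45). Of the other auxiliary subunits Cnih2 led with 122.1 ± 21.8, ahead of Neto1 (40.5 ± 7.12), Shisa6 (25.8 ± 6.90), Shisa9 (21.3 ± 3.82), Neto2 (16.6 ± 3.11) and Cnih3 (13.6 ± 4.00). Dlg4 was at 161.2 ± 19.8 and Grid1 at 15.0 ± 1.47.

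The order of genes depends on the deposited unit. Coverage, put on the TPM scale of each library, gave the level of Grm5 as 2.84 where its mean TPM was 111.1, a ratio of 39.1. The ratio was 15.9 for Grik2, 15.2 for Grm8, 7.53 for Gria4 and 6.79 for Dlg4, and by coverage Gria2 (78.5) lay above Gria1 (61.1). Within-group SDs of Grin2a on the log2 scale were 0.61 by TPM and 0.317 by coverage. Changes between groups are within a gene and were computed in both units.

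At 3 months 1 of the 35 tested genes was called (adjusted p below 0.05, limma with Benjamini-Hochberg adjustment over all 17840 tested genes), where 0.303% of all tested genes were called. That gene was Shisa6 (ENSMUSG00000053930, chromosome 11, 66211725 to 66525964, GRCm38), which encodes an auxiliary subunit that binds AMPA receptors at synapses and slows their desensitisation. Shisa6 was at 13.5, 15.1 and 16.2 scaled TPM in the APP libraries and at 32.9 and 31.2 in the WT libraries, so the groups did not overlap. All 3 APP values lay below the other 14 mouse libraries, the lowest of which was at 17.7. How many of all tested genes had groups without overlap was not counted, for this or any comparison below. Absence of overlap is therefore not shown to be particular to the genes named. The log2 change of Shisa6 was -1.05 (SE 0.160, adjusted p = 0.01738), a ratio of group means of 0.4663. It was -0.99 (adjusted p = 0.04845) without APP replicate 1, the library with most thalamus marker RNA, and -0.94 (adjusted p = 0.2521) without APP replicates 1 and 2. Leaving out either WT library also ended the call (adjusted p = 0.1195 without replicate 1 and 0.1157 without replicate 2), with changes of -1.02 and -1.09 and 1 WT library assumed to vary like the other groups. The count of called genes rose to 3 without APP replicate 2 and to 5 without APP replicate 3. Thalamus and striatum marker sums were high in APP replicates 1 and 2 and within the range of the other libraries in replicate 3, where Shisa6 was at 16.2. Oligodendrocyte marker sums were 2621, 1564 and 2173 in APP replicates 1, 2 and 3 and 1535 and 1459 in the WT libraries. Dentate gyrus marker sums were 51.8, 66.2 and 47.3 in these APP libraries and 89.4 and 71.3 in the WT libraries, without overlap. The part of all these markers in the result was not tested. With only the APP and WT libraries of this age in the fit the change was -1.07 and the call ended (adjusted p = 0.2406). Xist was high in both genotypes at 3 months. In bulk tissue, fewer cells of a type and less RNA per cell cannot be told apart.

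Other genes had large differences at 3 months that did not pass. Unadjusted p was below 0.05 for 14 of 35, 10 lower and 4 higher in APP, against 13.4% of all tested genes (6.6% lower and 6.77% higher), and the median log2 change was -0.043 over the set and 0.004 over all genes. Gria1 was at 93.0, 131.6 and 157.1 in APP and at 234.3 and 204.9 in WT libraries, without overlap and with a change of -0.81 (SE 0.174, adjusted p = 0.07085). Cnih2, a cornichon that promotes AMPA receptor export and slows their deactivation, was at 62.3, 82.0 and 112.4 in APP and at 141.7 and 145.9 in WT libraries (-0.78, SE 0.175, adjusted p = 0.0792). Cacng8 was at 30.2, 65.6 and 65.5 in APP and at 97.5 and 99.6 in WT libraries (-0.94, SE 0.234, adjusted p = 0.09938).

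These 3 genes, typical of pyramidal cells, were lowest in APP replicate 1, where the CA1 and pyramidal marker sum was also lowest (36.6). Replicate 1 held the lowest of the 17 mouse values for 14 of the 35 genes and the highest for 8, among them Gria4, Grm4, Cacng4 and Cacng5. How many of all tested genes had an extreme in this library was not counted, so these counts are not shown to be particular to the set. Gria4 was at 47.8, 36.3 and 34.7 in APP and at 19.97 and 26.8 in WT libraries (0.74, SE 0.184, adjusted p = 0.1022). Grm4, a presynaptic group III metabotropic receptor, was at 15.6, 9.13 and 6.28 in APP and at 3.97 and 6.09 in WT libraries (0.85, SE 0.346, adjusted p = 0.2963). Cacng5 was at 12.1, 4.37 and 2.48 in the APP libraries at 3 months, and the highest value in the other 14 libraries was 7.26, in APP replicate 1 at 6 months. The thalamus sum of that library was 117.2. The part of thalamus and CA1 markers in the values of this paragraph was not tested.

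**Figure D2:**
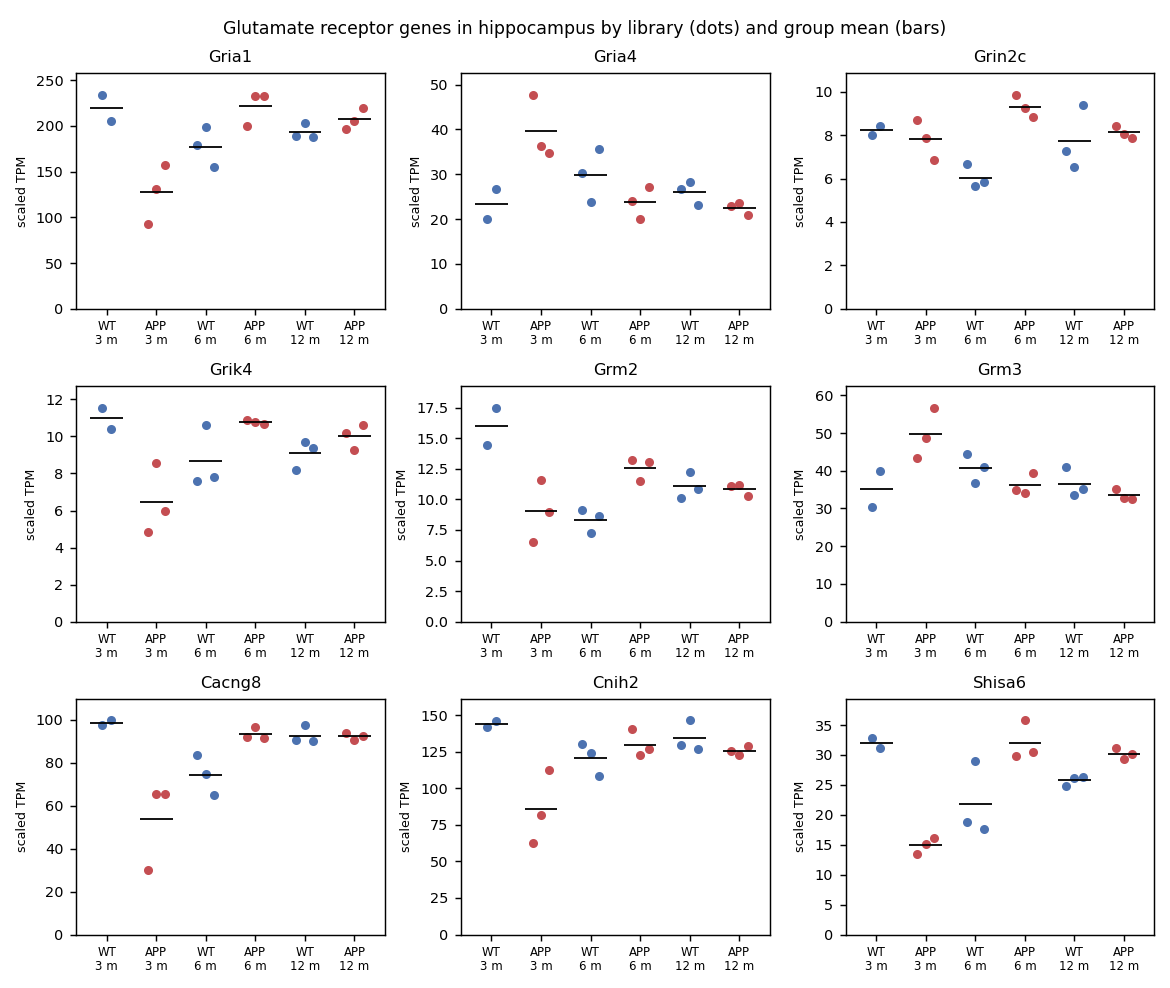
Scaled TPM (y axes, from 0) of 9 genes in each hippocampus library by genotype and age (x axes, months); dots are libraries and bars group means. Shisa6 lies between 13.5 and 16.2 in all 3 APP libraries at 3 months and at 17.7 or above in every other library, whereas Cacng8 in the same group has 30.2 in replicate 1 and 65.5 to 65.6 in the others.

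At 6 months 1 of the 35 genes was called, against 1.66% of all tested genes. Grin2c (ENSMUSG00000020734, chromosome 11, 115249169 to 115267243), an NMDA subunit known from cerebellum, thalamus and astrocytes, was at 9.86, 9.24 and 8.81 in APP and at 6.65, 5.66 and 5.82 in WT libraries. The groups did not overlap, and the change was 0.55 (SE 0.126, adjusted p = 0.04251). The call was marginal: the adjusted p ran from 0.02752 to 0.1142 when single libraries of the fit were left out, and it was 0.09524 (change 0.51) without APP replicate 1, whose thalamus sum was 117.2. Grin2c stayed past the threshold without any 1 of the APP libraries at 3 months or without WT replicate 2 or 3 at 12 months, and lost the call without each of the other 12 libraries in turn. The count of called genes was 4 without APP replicate 1 at 3 months. The adjusted p of Grin2c was 0.05391 by coverage in place of TPM and 0.1388 with only the APP and WT libraries of this age in the fit. WT values of Grin2c at 3 months were 8.02 and 8.41, between those of APP and of WT libraries at 6 months.

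Unadjusted p was below 0.05 for 7 of 35 genes at 6 months, all higher in APP, against 17% of all tested genes (7.72% higher and 9.26% lower). The median change was 0.192 over the set and 0.001 over all genes, and all 6 tested NMDA subunits and all 6 TARPs had changes above 0. Shisa6 was at 29.9, 35.8 and 30.5 in APP and at 18.8, 29.0 and 17.7 in WT libraries, the reverse order of 3 months (0.56, SE 0.143, adjusted p = 0.06085). Grm2, an autoreceptor of the perforant path and of mossy fibres, was at 13.2, 11.5 and 13.0 in APP and at 9.09, 7.21 and 8.68 in WT libraries (0.55, SE 0.159, adjusted p = 0.09347). On TPM as deposited, with no scaling between libraries, 26 of the 35 genes and 10339 genes in all were called at this age, and the median change was 0.598 over all genes, so an absolute direction at 6 months rests on the scaling.

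At 12 months no gene of the set was called by limma, none had an unadjusted p below 0.05, against 7.04% of all tested genes, and 0.443% of those were called. The smallest adjusted p in the set was 0.8523, for Cnih3 (0.43, SE 0.271), which was at 19.2, 18.6 and 19.0 in APP and at 9.77, 13.9 and 19.1 in WT libraries. Shisa6 was at 31.1, 29.4 and 30.2 in APP and at 24.7, 26.2 and 26.3 in WT libraries, with a change of 0.22 (SE 0.143). Gria1 was at 207.2 ± 11.2 in APP and 193.7 ± 8.62 in WT libraries (SD, n = 3 each), with a 95% interval of the change from -0.24 to 0.43. The Xist difference between genotypes was present at 12 as at 6 months.

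**Figure D3:**
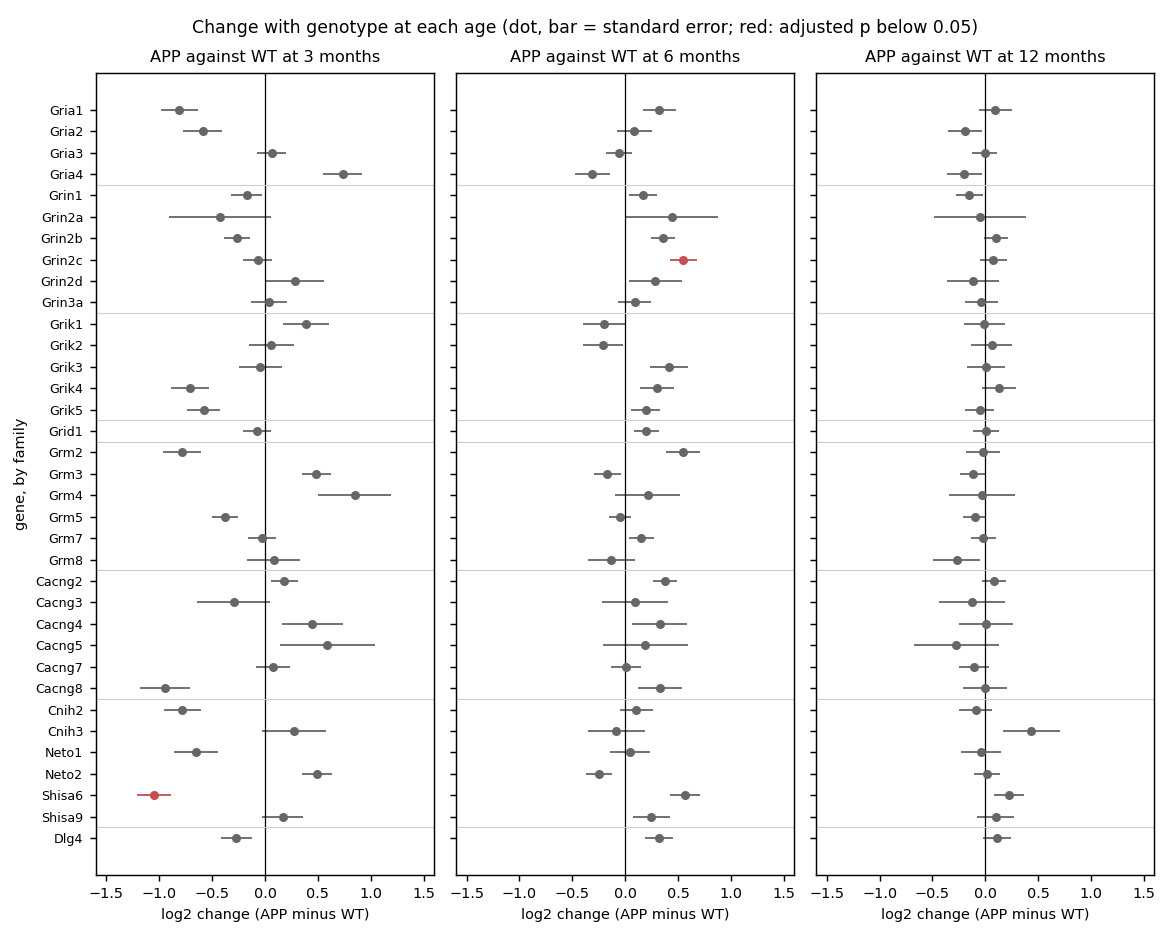
Log2 change between APP and WT libraries (x axes; dots, with bars of 1 standard error) for the 35 tested genes by family (y axis) at 3, 6 and 12 months. Shisa6 at 3 months (-1.05) and Grin2c at 6 months (0.55) are in red, the colour of genes with an adjusted p below 0.05, and at 12 months the largest change is that of Cnih3 (0.43).

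By mean TPM, Grin1, Grik5 and Grm5 were the highest of the NMDA, kainate and metabotropic families. By coverage Grin2a (54.4) lay above Grin1 (39.2), and Grm3 (39.5) above Grm5 (2.84). Grin1 was at 77.9, 107.7 and 114.5 in APP and at 101.7 and 122.3 in WT libraries at 3 months, at 100.2, 95.9 and 88.4 against 93.8, 77.8 and 81.9 at 6 months, and at 95.4, 88.3 and 89.1 against 99.8, 98.2 and 105.1 at 12 months. Grik5 was at 27.3, 43.8 and 43.0 in APP and at 53.0 and 59.6 in WT libraries at 3 months, at 54.0, 49.9 and 51.9 against 44.8, 46.1 and 45.0 at 6 months, and at 48.9, 47.5 and 45.7 against 45.5, 49.5 and 52.7 at 12 months. Grm5 was at 81.3, 86.0 and 96.9 in APP and at 103.2 and 127 in WT libraries at 3 months, at 116.2, 109.8 and 123.4 against 116.9, 121.6 and 122.4 at 6 months, and at 109.5, 90.9 and 109.4 against 117.2, 110.3 and 104.2 at 12 months. The Grik5 and Grm5 groups did not overlap at 3 months, and none of these 3 genes was called between genotypes at any age. The share of all tested genes without overlap was not counted.

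By the F test of the genotype by age interaction, the change between APP and WT libraries differed between ages for 1 of the 35 genes. Of all tested genes 0.437% were called. Xist was high in WT libraries at 3 months and low in those at 6 and 12 months, while all APP libraries were high. A genotype effect that differs with age and the difference in sex therefore cannot be told apart here. For Shisa6 the change at 6 months exceeded that at 3 months by 1.62 and the change at 12 months exceeded it by 1.28 (F = 30.8, adjusted p = 0.007699). Without APP replicates 1 and 2 at 3 months the first of these was 1.502 (adjusted p = 0.0624), and without WT replicate 2 at 3 months it was 1.65 (adjusted p = 0.05083). Grm2 was just outside the threshold (1.33 and 0.77, adjusted p = 0.05003). Its WT libraries at 3 months held 14.5 and 17.5 TPM, against 6.48, 11.6 and 8.98 in APP libraries of that age. Unadjusted p was below 0.05 for 14 of 35 genes, against 16% of all. The count of called genes was 3 without APP replicate 1 or 2 at 3 months, 4 without replicate 3 and 0 without WT replicate 2 of that age.

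Within APP libraries, 6 of the 35 genes were called between 6 and 3 months, 5 higher and 1 lower, against 2.37% of all tested genes (1.27% higher and 1.1% lower). Shisa6 (1.05, SE 0.143, adjusted p = 0.006052), Gria1 (0.83, SE 0.156, adjusted p = 0.01647), Cacng8 (0.87, SE 0.209, adjusted p = 0.04502), Grik4 (0.69, SE 0.161, adjusted p = 0.04049) and Cnih2 (0.64, SE 0.157, adjusted p = 0.04783) were higher at 6 months. Gria4 was lower (-0.71, SE 0.165, adjusted p = 0.0399). By coverage the calls of Gria4 (-0.50, adjusted p = 0.07401) and Cacng8 (0.86, adjusted p = 0.05268) ended. With only the APP libraries of these ages in the fit all 6 calls ended, with adjusted p from 0.09444 for Shisa6 to 0.2638 for Cnih2 and with changes of 1.06 and 0.64. Gria1 was at 199.7, 232.9 and 233.3 in APP libraries at 6 months, above all 3 of its values at 3 months. Cacng8 was at 92.1, 96.4 and 91.2, Cnih2 at 140.4, 122.5 and 126.7, and Gria4 at 24.1, 19.97 and 27.1, each without overlap with 3 months. Grik4, a kainate subunit of CA3 and dentate gyrus, was at 10.9, 10.8 and 10.7 at 6 months and at 4.82, 8.57 and 5.99 at 3 months.

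Between 12 and 3 months, 6 of the 35 genes were called in APP libraries, 3 higher and 3 lower, against 3.28% of all tested genes (1.92% higher and 1.36% lower). Shisa6 (0.97, SE 0.143, adjusted p = 0.002811), Gria1 (0.73, SE 0.156, adjusted p = 0.02076) and Cacng8 (0.85, SE 0.209, adjusted p = 0.03977) were again higher than at 3 months, and Gria4 again lower (-0.78, SE 0.165, adjusted p = 0.02014). Grm3, a metabotropic receptor strong in astrocytes, was lower at 12 months (-0.54, SE 0.126, adjusted p = 0.02975), with 35.2, 32.9 and 32.5 TPM against 43.3, 48.8 and 56.8 at 3 months. Neto2 was lower as well (-0.52, SE 0.126, adjusted p = 0.03796), with 15.1, 13.5 and 14.8 against 19.7, 20.1 and 23.9. With only the APP libraries of these ages in the fit Shisa6 still passed (0.97, adjusted p = 0.01159) and the other 5 did not, with adjusted p from 0.06182 for Gria4 to 0.2283 for Cacng8. By coverage all 6 passed, and so did Cnih2 (0.60, adjusted p = 0.04962) and Grik4 (0.71, adjusted p = 0.03484). The comparisons of 6 and of 12 with 3 months share the APP libraries at 3 months, which are also the APP libraries of the genotype comparison at that age.

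At 12 months Gria1 was at 197.2, 205.1 and 219.2, Cacng8 at 93.7, 90.4 and 92.4, and Gria4 at 23.0, 23.6 and 20.9 in APP libraries, again without overlap with 3 months. The counts moved with single libraries. Between 6 and 3 months, 1 gene passed without APP replicate 2 or 3 at 6 months, 2 without replicate 1 at 6 months, without any 1 of the APP libraries at 12 months or without WT replicate 1 or 2 at 12 months, and 3 without either WT library at 3 months, WT replicate 3 at 12 months or APP replicate 1 at 3 months. Between 12 and 3 months, 1 gene passed without any 1 of the APP libraries at 12 months. Each of the 17 mouse libraries was left out in turn. The call between 6 and 3 months ended in 16 fits for Cnih2, 14 for Cacng8, 13 for Grik4 and 9 for Gria4. It ended in 2 for Gria1 and 0 for Shisa6. The call between 12 and 3 months ended in 10 fits for Cacng8, 7 for Neto2 and 5 for Grm3. It ended in 4 for Gria4, 3 for Gria1 and 0 for Shisa6. Without APP replicate 1 at 3 months, Gria1 at 6 months still passed (0.62, adjusted p = 0.03008), as did Cacng8 (0.50, adjusted p = 0.02781) and Shisa6 (0.98, adjusted p = 0.01688), while Gria4 (-0.57, adjusted p = 0.1258), Cnih2 (0.43, adjusted p = 0.1258) and Grik4 (0.53, adjusted p = 0.1258) did not. Without replicates 1 and 2, which leaves 1 library assumed to vary like the other groups, 0 of 35 genes passed in either comparison, with changes of 0.94 for Shisa6 and 0.49 for Gria1 at 6 months. Grm3 was then at -0.74 (adjusted p = 0.06979) and Neto2 at -0.69 (adjusted p = 0.1122) at 12 months, larger in size than with all libraries. Grm3 was highest in replicate 3, the APP library of that age with the lowest thalamus sum. The oligodendrocyte sum of replicate 3 was 2173 and its dentate gyrus sum 47.3. The part of these markers in the Grm3 and Neto2 values was not tested.

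Between 12 and 6 months in APP libraries no gene of the set was called by limma, 2 had an unadjusted p below 0.05, and 0.538% of all genes were called. In WT libraries no gene was called by limma at 6 against 3 months (unadjusted p below 0.05 for 10 of 35, background 14%, 0.185% called), at 12 against 3 months (1 of 35, background 8.27%, 0.0617% called) or at 12 against 6 months (4 of 35, background 6.82%, 0% called). The largest change in WT libraries was that of Grm2 between 3 and 6 months (-0.86, SE 0.178, adjusted p = 0.07219). Over the set the median change from 3 to 6 months in WT libraries was -0.24, against 0.012 over all genes, and 8 of 35 genes had a change above 0. The 3-month and 6-month WT libraries also differed in Xist. Without APP replicate 1 or 2 at 3 months, or WT replicate 2 at 6 months, 1 gene passed in this comparison.

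The make-up of a family within a library does not depend on the scaling between libraries. Gria4 took 11.8% ± 4.40 of the AMPA subunit TPM in APP libraries at 3 months (SD, n = 3, 8.60% to 16.8%) and means of 4.81% to 6.72% in the other 5 groups, the highest single value being 8.35% in WT libraries at 6 months. Gria1 took 36.0% ± 3.09 in APP libraries at 3 months and 45.4% ± 0.627 (n = 2) in WT libraries of that age, without overlap, and 39.3% ± 2.55 in WT libraries at 6 months, with overlap. By coverage the share of Gria4 was 4.55% ± 1.87 in APP libraries at 3 months and 1.96% ± 0.598 in WT libraries of that age. Gria2, whose edited form makes AMPA receptors impermeable to calcium, kept mean shares of 35.0% to 39.6% by TPM in all 6 groups.

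Among TARPs, Cacng8 took 34.4% ± 9.74 in APP libraries at 3 months (23.3% to 41.6%) and means of 50.5% to 54.1% in the other groups. In the same libraries Cacng7 took 31.0% ± 5.14 and Cacng2, the prototype TARP stargazin, 10.2% ± 0.836, against 23.6% ± 4.17 and 7.16% ± 0.792 in WT libraries at 3 months. Of kainate subunit TPM, Grik5 took 40.9% ± 5.96 in APP and 50.6% ± 0.253 in WT libraries at 3 months, without overlap. Grik1, a subunit of interneurons, reached 17.6% in APP replicate 1 at 3 months and had group means of 6.70% to 11.6%. Of the 4 Grin2 subunits, Grin2a and Grin2b took mean shares of 45.9% to 51.3% and 42.6% to 48.3% in the 6 groups, with SDs within groups of up to 16.1 percentage points. By coverage the mean shares were 55.7% to 64.0% for Grin2a and 25.0% to 28.1% for Grin2b, so the near-equal split was seen by TPM only.

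**Figure D4:**
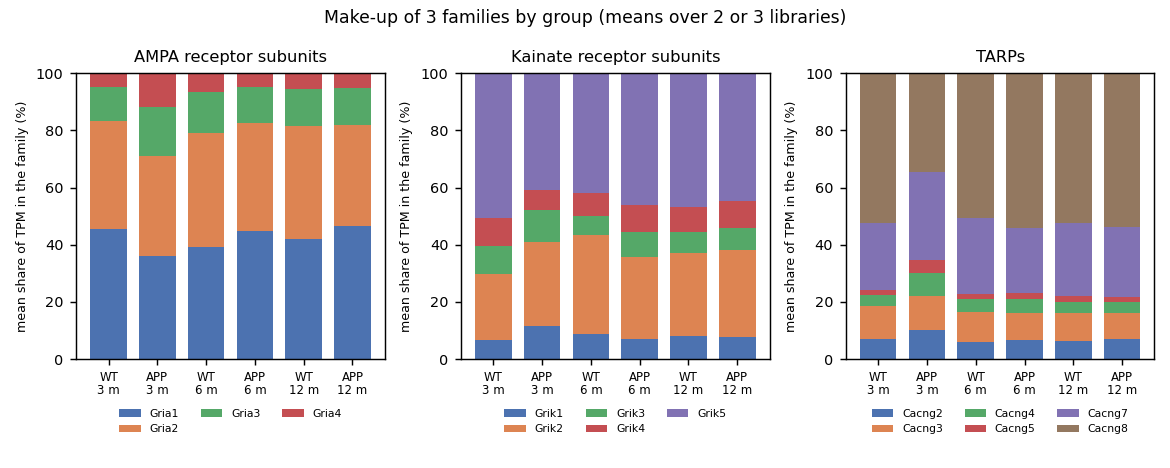
Mean share of the summed TPM of a family taken by each gene (y axes, percent) in the 6 groups (x axes), for AMPA receptor subunits, kainate receptor subunits and TARPs; each bar is the mean over 2 or 3 libraries. The bars of APP libraries at 3 months stand apart, with Gria4 at 11.8% of AMPA subunit TPM and Cacng8 at 34.4% of TARP TPM.

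Other genes of glutamate synapses, in 3 lists, were read in the same fits. At 3 months Homer3 (-1.13, adjusted p = 0.09417) and Shisa7, an auxiliary subunit named for AMPA and GABA-A receptors (-1.01, adjusted p = 0.1194), had the largest changes between genotypes of the scaffold and biogenesis lists. None of 18 scaffold genes, 13 genes of AMPA receptor biogenesis and 8 of glutamate transport and synthesis passed by limma, and unadjusted p was below 0.05 for 6, 7 and 3 of them, against 13.4% of all tested genes. Slc17a6, the vesicular glutamate transporter of thalamic neurons, had the largest change of its list (1.53, adjusted p = 0.2656) and Slc17a7, that of hippocampal pyramidal cells, the next (-0.85, adjusted p = 0.3655). At 6 and 12 months 0 genes of these lists were called between genotypes by limma. Unadjusted p was below 0.05 for 3, 1 and 1 of them at 6 months, against 17% of all tested genes, and for 0 at 12 months, against 7.04%.

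From 3 to 6 months in APP libraries, 1 of 18 scaffold genes (Homer3, 1.00, adjusted p = 0.04615), 2 of 13 biogenesis genes (Syndig1, which promotes AMPA receptor clustering, -0.96, adjusted p = 0.008426, and Cpt1c, which regulates Gria1 export, 0.41, adjusted p = 0.04963) and 2 of 8 transport genes were called, against 2.37% of all tested genes. The latter were the glial glutamate transporters Slc1a2 (0.58, adjusted p = 0.0403) and Slc1a3 (0.42, adjusted p = 0.0412). From 3 to 12 months Homer3 (0.99, adjusted p = 0.03977), Syndig1 (-0.88, adjusted p = 0.005911) and the pentraxin Nptx2, which clusters AMPA receptors (-1.20, adjusted p = 0.02535), were called, against 3.28% of all tested genes. The comparisons use the same APP libraries at 3 months. Of these, replicates 1 and 2 were high in thalamus and striatum markers and replicates 1 and 3 in oligodendrocyte markers. The part of these markers in the results was not tested.

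HT-22 cells held little of this set. Of the 37 genes, 23 were listed at 0 in all 14 HT-22 libraries, among them all 4 AMPA subunits, Grin1, Grin2a and Grin2b, 3 of 5 kainate subunits, 5 of 7 metabotropic receptors, 4 of 6 TARPs, and Shisa6, Shisa9, Neto1 and Neto2. The depth behind a listed 0 is not given by the files. A further 9 genes were above 0 in some library with a mean below 1 TPM and were not tested. Of 8 general neuron markers 6 were below 1 TPM in every HT-22 library, and their summed level was 6.96 to 13.4, so these defining markers of the labelled cell type were largely absent. Markers of dentate gyrus and interneurons summed to at most 0.029. Some other lists were not near 0. CA3 markers summed to 29.3 to 46.2 and thalamus markers to 56.9 to 88.4. Oligodendrocyte precursor markers summed to 110.4 to 150.2, with 2 of 5 genes at 1 TPM or above. Replicates 3 and 4 of Aβ42 with scramble and replicate 4 of reverse peptide with scramble stood apart from the other 11 libraries. Sox9 was at 66.0 to 80.7 in these 3 and at 21.6 to 27.4 in the others, Tmem119 at 53.0 to 54.6 and at 6.6 to 13.8, and Gja1 at 50.6 to 60.7 and at 6.26 to 23.9.

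The other 5 genes were tested. Mean deposited TPM was 34.0 for Dlg4, 11.3 for Cnih2, 5.18 for Cacng7, 3.36 for Grik2 and 1.93 for Grin2d in HT-22 cells, and 167.2, 125.1, 43.9, 31.7 and 3.25 in hippocampus, each library being scaled on its own. For Dlg4 and Grik2 the TPM was 8.14 and 21.1 times the level read from coverage. Grin3b averaged 0.927 TPM in HT-22 cells and 0.105 in hippocampus. It shares 32.1% of its exon bases with Tmem259 on the opposite strand, at 70.4 TPM in HT-22 cells, and whether the counting used strand is stated by no label, so the reads of these genes cannot be told apart. Cnih2 shares 14 exon bases with Yif1a, and Grin2d 9.66% of its exons with Gm45441 (0.207 TPM in HT-22 cells), both on the opposite strand.

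To set genes at 0 in HT-22 cells beside one that is present, the 250 bases before the annotated start are printed for Gria2, Grin1 and Grm2, all at 0, and for Cnih2, from RefSeq on GRCm38.p6, 5′ to 3′ on the gene's strand. Promoters of 24 of the 37 genes were matched by symbol. Capitals mark GGACAG and TTCAGCACC, the right and left parts of the RE1 element known to bind the neuronal gene repressor REST, searched on both strands, where CTGTCC is GGACAG on the opposite strand.
Gria2, chr3:80802836-80803085, minus strand: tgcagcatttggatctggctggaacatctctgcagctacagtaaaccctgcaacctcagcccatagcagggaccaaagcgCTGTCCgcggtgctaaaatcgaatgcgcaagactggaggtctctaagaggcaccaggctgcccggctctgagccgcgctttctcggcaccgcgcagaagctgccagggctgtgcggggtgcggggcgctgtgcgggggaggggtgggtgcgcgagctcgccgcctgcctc
Grin1, chr2:25319188-25319437, minus strand: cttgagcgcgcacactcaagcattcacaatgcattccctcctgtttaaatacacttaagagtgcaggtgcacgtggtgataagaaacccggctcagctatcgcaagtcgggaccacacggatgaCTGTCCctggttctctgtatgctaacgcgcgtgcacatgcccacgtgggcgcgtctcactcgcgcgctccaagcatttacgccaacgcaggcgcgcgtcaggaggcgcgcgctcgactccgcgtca
Grm2, chr9:106656110-106656359, minus strand: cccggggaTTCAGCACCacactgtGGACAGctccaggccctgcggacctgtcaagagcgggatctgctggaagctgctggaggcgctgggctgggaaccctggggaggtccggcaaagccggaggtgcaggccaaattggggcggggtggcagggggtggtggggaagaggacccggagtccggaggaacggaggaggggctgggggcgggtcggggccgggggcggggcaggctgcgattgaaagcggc
Cnih2, chr19:5098522-5098771, minus strand: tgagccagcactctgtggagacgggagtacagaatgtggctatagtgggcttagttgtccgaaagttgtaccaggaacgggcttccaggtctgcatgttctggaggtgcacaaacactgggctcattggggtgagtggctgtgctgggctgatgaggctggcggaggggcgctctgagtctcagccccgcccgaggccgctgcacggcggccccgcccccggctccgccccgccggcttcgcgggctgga

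GGACAG was found in 18.7% of all 32851 windows of this length. At least 1 window held it in 8 of the 24 matched members: Cacng5, Cacng8, Gria2, Grin1, Grin2d, Grin3b, Grm2 and Grm8. Some members had more than 1 window (Grm8 had 3 and Cacng5 had 2), so counts of members and shares of windows are unlike units. It lay at -170 in Gria2 and at -126 in Grin1, counted in bases from the annotated start to the motif's first base. TTCAGCACC was found in 0.301% of windows and in 1 matched member, Grm2, at -242, with GGACAG at -226. Cnih2 held neither. Of the 13 matched members listed at 0 in HT-22 cells 5 held GGACAG and 8 did not (Cacng3, Gria4, Grik3, Grik4, Grm3, Grm6, Grm7 and Neto2), and of the 11 above 0 in some library 3 held it and 8 did not. The 3 printed genes at 0 were chosen after the motif was found in them and do not stand for all genes at 0. In all 9 motifs were searched, on both strands, and those in capitals were chosen for printing once the matches were known. Of the 7 not marked, the left and right RE1 parts joined with 2 bases between them (0.00913% of windows) and TGACGTCA (1.55%) were in no matched member. CAGCACC, which lies within TTCAGCACC, was in Grm2 alone (5.73% of windows) and CAGATG in Grin3b alone (14.4%). CACGTG was in Cnih3 and Grin1 (6.02%), CAGCTG in Cacng2 and Cacng3 (13% of windows), and TGACG, which lies within TGACGTCA, in Dlg4, Grin1 and Grm8 (17.8%).

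No gene of the set was called in any of the 4 HT-22 comparisons by limma, and none of the 5 tested had an unadjusted p below 0.05, with or without the 3 libraries that stand apart. Over all 17291 tested genes 0%, 0%, 0% and 0.0231% were called and 5.01%, 4.59%, 3.63% and 8.99% had an unadjusted p below 0.05, in the order Aβ42 against reverse peptide under scramble and under anti-Hsf1, and anti-Hsf1 against scramble with reverse peptide and with Aβ42. Dlg4 was at 34.2, 26.0, 43.9 and 37.1 with Aβ42 and scramble, the latter pair from libraries that stand apart, and was at 30.9, 34.5, 35.0 and 30.9 with reverse peptide and scramble. Under anti-Hsf1 it was at 31.4, 32.4 and 24.6 with Aβ42 and at 26.8, 38.9 and 33.2 with reverse peptide, all groups overlapping. Its change with anti-Hsf1 under Aβ42 was -0.24 (SE 0.170, 95% interval -0.60 to 0.13). On TPM as deposited it was -0.93 (adjusted p = 0.002549), where the median over all genes was -0.622, and without the 3 libraries that stand apart it was -0.03 (adjusted p = 0.9837).

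Cacng7 had the largest change of the set in HT-22 cells, 0.32 with anti-Hsf1 under Aβ42 (SE 0.172, 95% interval -0.05 to 0.69, adjusted p = 0.5625). It was at 6.18, 4.53 and 7.44 TPM there and at 4.75, 5.08, 4.56 and 3.95 with scramble, with overlap, and its change was -0.29 on TPM as deposited and 0.23 without the 3 libraries that stand apart. Grik2 was at 3.13, 1.84 and 4.49 with Aβ42 and anti-Hsf1 and at 3.94, 2.50 and 4.62 with reverse peptide and anti-Hsf1 (-0.20, SE 0.346). Cnih2 had group means of 10.6 to 11.5 and changes from -0.10 to 0.02 over the 4 comparisons, and the 95% intervals lay between -0.41 and 0.34. Without the 3 libraries that stand apart its changes ran from -0.24 to 0.12.

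**Figure D5:**
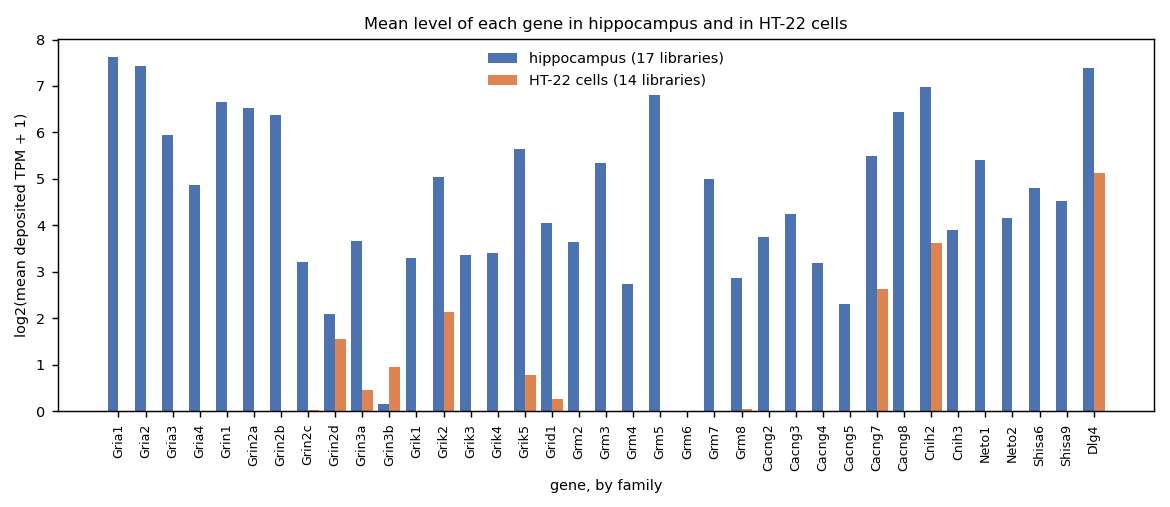
Mean deposited TPM of each of the 37 genes, as log2(TPM + 1) (y axis), in 17 hippocampus and 14 HT-22 libraries (bars, by family on the x axis). Dlg4 (34.0 TPM) and Cnih2 (11.3 TPM) have the highest bars in HT-22 cells, and 23 genes are at 0 there.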

How the data were processed

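Long-RNA libraries of 17 mouse hippocampus and 14 HT-22 samples were used, and the short-RNA files were not used here. The authors deposited gene abundance tables whose TPM, FPKM and coverage columns are named per the file headers. The submitters' processing notes list HISAT2 2.1.0, StringTie 1.3.4d, cutadapt 1.18, BWA 0.7.17, bedtools 2.26.0 and FastQC with the builds mm10 and GRCm38, without their roles, and whether counting used strand is stated by no source used here. TPM was summed per gene identifier, scaled by median ratios over genes with a mean of at least 1 TPM and above 0 in every library, and tested as log2(TPM + 1) with limma 3.58.1 (R 4.3.3, trend and robust, Benjamini-Hochberg over all genes with a mean of at least 1 TPM, threshold 0.05), in 1 fit of 6 mouse groups and 1 of 4 HT-22 groups. Fold changes of low genes are understated on this scale. The code was tested on simulated data. The files give no read counts, so only relative depth is known.

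Values per library are given for genes called in any comparison and the 3 genes with the largest changes in each family of comparisons. They are also given for the highest gene by mean TPM of each receptor or TARP family. Grm2, Cnih3, Cacng5 and the overlapping neighbours were added after their values were seen. The members and lists were chosen with earlier results of these data known. Same-numbered libraries were not paired in these fits. Alternatives covered scaling, the pseudocount, the filter, library weights, the samples in the fit, coverage in place of TPM and leaving out each library. Results of a list of signalling genes are not reported here.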

Additional observations from a re-analysis of the deposited data

Results flagged for a closer look

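Shisa6 drew attention because its change between APP and WT libraries differed between ages by the interaction test in limma. The log2 change at 6 months minus that at 3 months was 1.618 (adjusted p = 0.007699). Shisa6 was lower in all 3 APP than in both WT libraries at 3 months and higher in all 3 APP than in all 3 WT libraries at 6 months. The thalamus and striatum marker sums were high in replicates 1 and 2 of APP at 3 months but not in replicate 3, where Shisa6 was also low (16.2). Dentate gyrus marker sums were 51.8, 66.2 and 47.3 in APP and 89.4 and 71.3 in WT libraries at 3 months. At 6 months they were 106.5, 97.3 and 96.0 in APP and 58.4, 74.7 and 56.2 in WT libraries, the order of genotypes seen for Shisa6 at both ages. Xist was low in the WT libraries at 6 months. The part of these markers and of sex in the result was not tested. Gaps of single libraries were checked in the HT-22 groups of 4, and none exceeded the limit.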

How the results depend on the processing

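Counts below are genes of the set called, with all libraries first. Over all tested genes the counts were 54, 297, 423, 585, 33 and 78 for the mouse comparisons in the order given below, the interaction last. Their highest values were 72, 10339, 1270, 731, 6077 and 5910 over settings other than leaving out single libraries. When single libraries were left out, the highest values were 376, 515, 581, 756, 106 and 204. APP against WT at 3 months (1) gave 4 on TPM as deposited, 2 with quantile normalisation, 2 with a mean of at least 5 TPM, 0 with only the groups compared, 0 without APP replicates 1 and 2 at 3 months, and 0 to 5 when single libraries were left out. At 6 months (1) the same settings gave 26, 2, 2, 0, 3 and 0 to 4, and no filter gave 0. APP at 6 against 3 months (6) gave 11 on TPM as deposited, 2 with no filter, 2 with library weights, 0 with only the groups compared, 0 without APP replicates 1 and 2 at 3 months, and 1 to 9 without single libraries. APP at 12 against 3 months (6) gave 3, 3 with no filter, 1 with only the groups compared, 0 without those 2 libraries and 1 to 7. WT at 6 against 3 months (0) gave 22, 1 with weights, 2 without those 2 libraries and 0 to 1. The interaction (1) gave 19 on TPM as deposited, 4 with quantile normalisation, 3 at 5 TPM, 2 with weights, 2 by coverage, 2 with scaling on protein-coding genes and 0 to 4. TPM as deposited gave 1 for Aβ42 against reverse peptide under anti-Hsf1 and 2 for anti-Hsf1 against scramble with Aβ42, where the change of Cacng7 turned to -0.286. Over all tested genes the highest counts in these comparisons were 4197 and 8766, in settings other than leaving out single libraries. Without the 3 HT-22 libraries that stand apart the count was 0 in all 4 HT-22 comparisons. The change of Grik2 with Aβ42 under anti-Hsf1 ran from -0.429 to 0.05 without single libraries. With the replicate number as a replicate block the counts were 0 at 6 months, 3 for APP at 6 against 3 months and 5 for APP at 12 against 3 months. Deviations from group means had a median correlation of -0.007 over 40 pairs of same-numbered mouse libraries (highest 0.228). Over 80 other pairs it was -0.008 (highest 0.171). For HT-22 libraries the medians were 0.015 over 19 same-numbered pairs (highest 0.575) and 0.003 over 54 others (highest 0.556). With few libraries per group such values cannot exclude that same-numbered libraries share a factor, and the labels do not say what a number shares. The other 4 mouse comparisons with 0 calls, APP against WT at 12 months, APP at 12 against 6 months and WT at 12 against 3 and against 6 months, gave 0 in every setting run. Coverage, the other scaling references and the fits without 2 mouse or 3 HT-22 libraries were chosen after seeing the data. The cause of these shifts was not tested. Relative depth differs between libraries and absolute depth is unknown, which limits the genes near 1 TPM.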
